A study of Mus musculus with 2 samples.

Results

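Non-cycling oligodendrocyte precursors were compared between the ipsilateral and the contralateral striatum of mice 2 weeks after a stroke on postnatal day 10. The cells were chosen by their own measured values. Of the barcodes with at least 500 detected genes and at most 15% mitochondrial counts of unique molecular identifiers (UMIs, which mark single RNA molecules), those with at least 5 UMIs per 10000 of Pdgfra, Cspg4 and C1ql1 together were taken. Gpr17 had to lie under 10, Enpp6 and Tcf7l2 together under 5, and Mobp, Mog and Mal together under 40 per 10000. Cells with 3 or more raw UMIs of the proliferation genes Mki67 and Top2a were then left out. This gave 513 of 4418 kept barcodes (4841 in all), of which 281 of 2505 were ipsilateral (11.2%, exact binomial 95% interval 10.0 to 12.5) and 232 of 1913 contralateral (12.1%, 10.7 to 13.7).

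The study occluded the middle cerebral artery of male C57/BL6 mice for 60 minutes on postnatal day 10 and let blood flow return for 2 weeks. The ipsilateral library came from the lateral striatum on the side of the occlusion and the contralateral library from the opposite side of the brain, so the contralateral tissue too came from animals with a stroke. Each of the 2 droplet libraries pooled the striata of 3 animals, and the sort kept cells positive for A2B5 (early glial progenitors), O4 (later oligodendrocyte lineage) or both. There is 1 library per side, so no test of the sides was possible, no difference below has a replicate check, and every interval covers counting error only. No unoperated animals were analysed here.

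Oligodendrocyte precursors are the dividing glial progenitors from which myelinating oligodendrocytes arise, and they persist in the adult brain. Their division and survival depend on platelet-derived growth factor acting through the receptor Pdgfra, and they carry the proteoglycan Cspg4 (NG2), a chondroitin-sulfate-rich matrix, glutamate receptors and potassium channels. Notch signalling, through targets such as Hes5, and bone morphogenetic protein signalling hold precursors back from differentiation, and interferon can change their state in inflamed tissue.

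Most selected cells carried the markers of the label. The exceptions were a few vessel-associated cells, which the selection also admits, and a few other cells without UMIs of Olig1, Olig2 and Sox10. Olig1, Olig2 and Sox10, the transcription factors of the lineage, were not used in the selection. Pdgfra marks vessel-associated fibroblasts and Cspg4 marks mural cells as well as precursors. Mural or fibroblast markers passed 20 UMIs per 10000 in 7 ipsilateral and 10 contralateral cells, in which the lineage factors summed to between 0 and 1.38 UMIs per 10000 ipsilaterally and between 0 and 1.91 contralaterally. A further 10 ipsilateral and 5 contralateral cells carried markers of astrocytes, endothelial cells or neuroblasts above 20 per 10000, or further mature oligodendrocyte markers above 40 per 10000. Leaving all of these out gave a subset of 264 ipsilateral and 217 contralateral cells, defined after the data had been seen and called the cleaned cells here. In the cleaned cells the lineage factors had a median of 46.4 UMIs per 10000 ipsilaterally (0 to 108) and 43.4 contralaterally (16.9 to 80.7). The ipsilateral cleaned cells thus still held some without any UMI of the lineage factors. Microglia markers were near 0 in both libraries, at 0.57 UMIs per 1000000 UMIs of the cells (CPM) ipsilaterally and 1.35 CPM contralaterally.

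**Figure D1:**
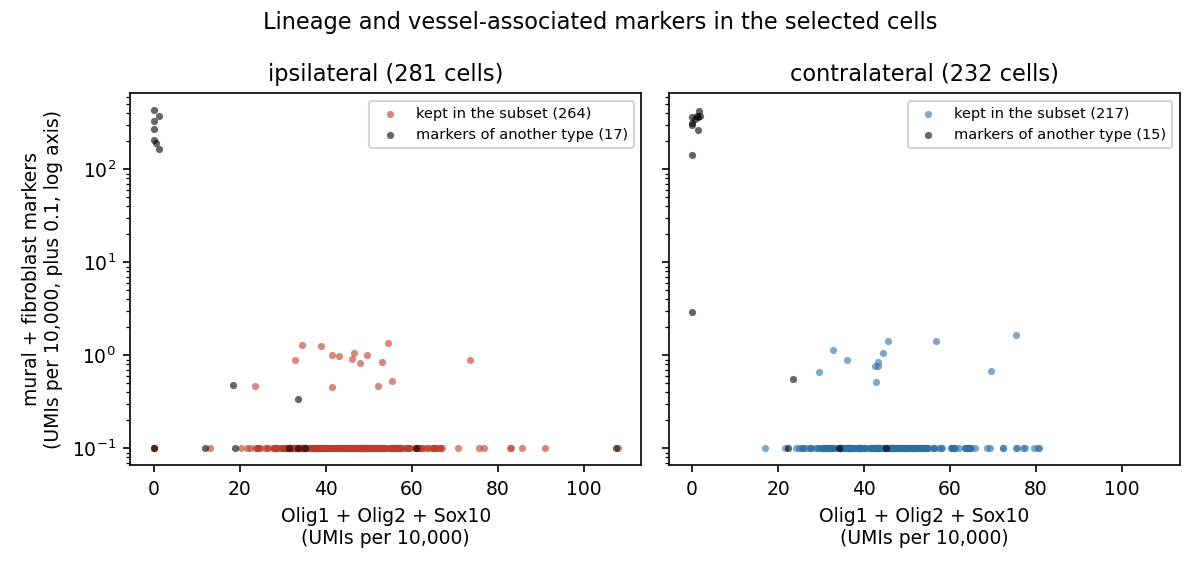
Each point is 1 selected cell, with the summed level of Olig1, Olig2 and Sox10 on the horizontal axis and the summed level of 6 mural and 6 fibroblast markers on the vertical log axis, both in UMIs per 10000. Of the ipsilateral cells on the left, 17 are black, and of the contralateral cells on the right, 15 are black, for markers of another cell type; the group at the upper left of each panel lacks the lineage factors.

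Markers kept out of the selection were shared by nearly all cleaned cells. Lhfpl3 was at 896 CPM in ipsilateral cells (exact Poisson 95% interval 865 to 928), against 940 CPM (900 to 982) in contralateral cells. Matn4, a matrix protein, was at 863 CPM (833 to 895) ipsilaterally and 817 CPM (780 to 856) contralaterally. For both genes the intervals of the libraries overlapped. Over the other kept barcodes outside the gate, Lhfpl3 was at 67.7 CPM ipsilaterally and 55.6 CPM contralaterally. Of the genes used for the selection, Pdgfra was at 1178 CPM in ipsilateral and 1295 CPM in contralateral cleaned cells, Cspg4 at 514 and 586 CPM, and C1ql1 at 1387 and 1477 CPM, which is given as a description.

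Outside the selection genes, the 10 genes that most set the cleaned cells apart from all other kept barcodes were Cdo1, Ccnd1, Cspg5, Olfm2, Chl1, Kcnip3, Emid1, Ednrb, Lhfpl3 and Xylt1. Cdo1, which makes the first step of taurine synthesis from cysteine, was at 463 CPM in ipsilateral cleaned cells and 28.4 CPM in the other ipsilateral barcodes, and at 629 and 30.6 CPM contralaterally. Ccnd1, the G1 cyclin, was at 1080 and 74.4 CPM ipsilaterally and at 1044 and 71.9 CPM contralaterally. Since the cells were chosen by their expression, these are descriptions and no test was made.

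Cells lay close to the limits on the precursor genes and on Gpr17 from both sides. The lowest level of Pdgfra, Cspg4 and C1ql1 inside was 5.07 per 10000 ipsilaterally and 5.05 contralaterally, and the highest outside was 5.00 and 4.77. For Gpr17, the highest level inside was 9.97 per 10000 in both libraries, and the lowest outside was 10.05 ipsilaterally and 10.06 contralaterally. The cycling limit was crossed in small steps: 35 ipsilateral selected cells had 1 UMI of Mki67 and Top2a and 12 had 2, against 12 and 6 contralateral cells. Together these were 16.7% of the ipsilateral selected cells (12.6 to 21.6) and 7.76% of the contralateral ones (4.66 to 12.0), and 7 ipsilateral and 4 contralateral cells lay just outside with 3 UMIs. These shares count raw UMIs. With cycling cells included and each cell thinned to 6466 UMIs, 22.7% of ipsilateral cells (18.1 to 27.8) had at least 1 UMI of the 2 genes. Contralaterally the share was 15.7% (11.3 to 21.1), and these intervals overlapped. Ipsilateral cells were more deeply sequenced, with a median of 12195 UMIs and 4443 genes per selected cell, against 9674.5 UMIs and 3975.5 genes contralaterally. Ribosomal protein genes took 10.1% of the UMIs of ipsilateral and 7.34% of contralateral selected cells, and mitochondrial genes 4.92% and 4.6%. The part of depth and RNA composition in the differences below was not tested, except where cells were thinned to equal depth. The libraries shared 0 cell barcodes.

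Removing cycling cells took out most of the difference in DNA replication genes. Before removal, 48 of 329 precursors of the ipsilateral gate were cycling by the rule (14.6%, 11 to 18.9), against 25 of 257 contralateral ones (9.73%, 6.39 to 14.0), and these intervals overlapped. With every cell of the gate thinned to 6466 UMIs, 33 of 304 ipsilateral cells (10.9%, 7.59 to 14.9) and 16 of 229 contralateral cells (6.99%, 4.05 to 11.1) still had 3 or more UMIs of the 2 genes. In cleaned precursors with cycling cells kept, the 30 S phase genes summed to 1527 CPM (1490 to 1563) ipsilaterally and 1052 CPM (1013 to 1092) contralaterally, a ratio of 1.45. Without cycling cells the sums were 790 CPM (761 to 820) ipsilaterally and 725 CPM (690 to 761) contralaterally, a ratio of 1.09. Of 27 measured S phase genes, 3 were still at least 1.5-fold higher ipsilaterally, at low levels. Cdt1, which licenses replication origins, was at 12.0 CPM ipsilaterally and 4.06 CPM contralaterally (2.97 times, 1.42 to 6.94), and Uhrf1 and Dtl were the others. Restricting both sides to cells with 0 UMIs of Mki67 and Top2a left 623 CPM (595 to 653) in 219 of 264 ipsilateral cells and 695 CPM (660 to 733) in 199 of 217 contralateral cells, a ratio of 0.90. A limit of 0 raw UMIs is stricter for the deeper ipsilateral cells, so this ratio describes the cells it leaves and no direction is read from it.

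Mitotic genes behaved differently from replication genes. The 30 G2/M genes summed to 2328 CPM ipsilaterally and 2312 CPM contralaterally with cycling cells kept, and to 655 CPM (628 to 682) and 630 CPM (597 to 664) without them. Within the removed cleaned cycling cells alone, S phase genes summed to 4230 CPM in 46 ipsilateral cells and 2930 CPM in 24 contralateral cells. The G2/M genes summed to 8465 CPM in these ipsilateral cells and 11966 CPM in the contralateral ones. The pooled cycling cells thus differed between the sides in the balance of the 2 lists. Of the 386753 UMIs of the 24 contralateral cycling cells, 55821 came from 1 cell. Olig1 was at 2000 CPM in ipsilateral and 1911 CPM in contralateral cycling cells, but Ccnd2 was at 177 and 933 CPM. Sox9 was at 5.26 and 80.2 CPM. Whether a few unusual cells make the difference was not tested. The non-cycling cells differed by 1.09 times for S phase and 1.04 times for G2/M genes.

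**Figure D2:**
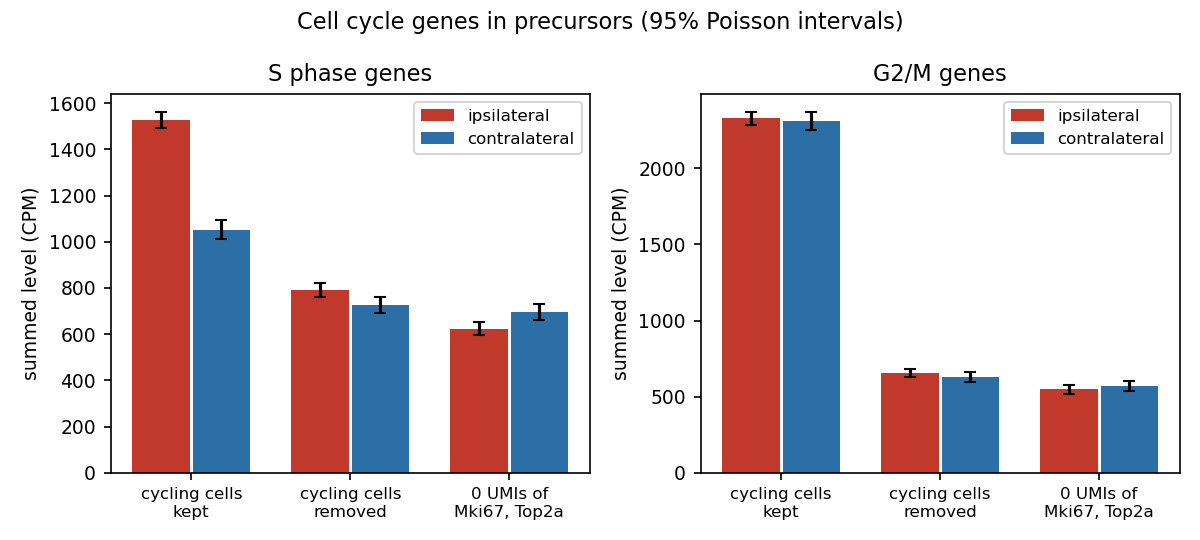
Summed levels of 30 S phase genes (left panel) and 30 G2/M genes (right panel), in CPM, in cleaned precursors with cycling cells kept, with cycling cells removed and with 0 UMIs of Mki67 and Top2a; bars are exact Poisson 95% intervals. The ipsilateral excess of S phase genes is 1.45 with cycling cells, 1.09 without them and 0.90 with 0 UMIs, a limit that is stricter in the deeper ipsilateral library.

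Across all genes, few differed by 1.5 times or more between non-cycling precursors of the sides. UMIs were summed over the cells of each library, expressed as CPM and compared as the log2 ratio, ipsilateral over contralateral, after adding 5 CPM to both. Of 11838 genes with at least 20 summed UMIs in the selected cells, 211 (1.78%) were at least 1.5-fold higher in the ipsilateral library and 430 (3.63%) at least 1.5-fold lower. In the cleaned cells the counts were 185 higher (1.62%) and 304 lower (2.65%) of 11454 genes. The cleaned-cell shares stand beside the counts of genes past 1.5-fold in each list below. The 2 sets of higher genes shared 143, which is 67.8% of those in all selected cells and 77.3% of those in cleaned cells, and the sets of lower genes shared 221 (51.4% and 72.7%). The median log2 ratio of all genes was -0.06 in both sets.

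In all selected cells the most extreme genes were mostly those of vessel-associated cells. The 10 lowest genes were Mylk, Rgs5, Tagln, Higd1b, Rgs4, Notch3, Myl9, Itga1, Myh11 and Art3, most of which are genes of smooth muscle and pericytes. Rgs5 was at 103 CPM in 281 ipsilateral and 540 CPM in 232 contralateral selected cells, and at 0.57 and 1.35 CPM in the cleaned cells. The 10 highest genes, among those with at least 50 UMIs and at least 20 CPM in 1 library, were Dcn, Crym, Gadd45g, Slc6a13, Apod, Rtp4, Col1a1, Ptgds, Selenop and Fbln5, of which Dcn and Col1a1 encode fibroblast matrix proteins. Dcn was at 44.4 CPM ipsilaterally and 6.32 CPM contralaterally in all selected cells and had 0 UMIs in the cleaned cells of both libraries. Crym was at 22 and 1.26 CPM in all selected cells and at 1.15 and 1.35 CPM in cleaned ones. Gadd45g and Rtp4 had log2 ratios of 2.01 and 1.47 in all selected cells, and both stayed among the 10 highest genes in the cleaned cells. Values below are therefore for the cleaned cells, with those of all selected cells where they differ in direction or by over 1.5 times.

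Among genes of that depth in the cleaned cells, the highest ratio was that of Gadd45g, which encodes a stress- and differentiation-linked binding partner of cell cycle and stress kinases. It was at 124 CPM (112 to 136) in ipsilateral cells and 28.8 CPM (22.2 to 36.8) in contralateral cells, a log2 ratio of 1.93 and 4.28 times the level (counting interval 3.29 to 5.66). At equal depth of 6915 UMIs, 81 of 245 ipsilateral cells (33.1%, 27.2 to 39.3) and 25 of 188 contralateral cells (13.3%, 8.79 to 19.0) had a Gadd45g UMI. The intervals did not overlap, but the gene was picked by its ratio in the same cells, so this is a description. No single cell held more than 8.12% of the ipsilateral UMIs. Neuroblasts of the same libraries, taken by their own markers, had the gene in 48.1% of ipsilateral and 50.8% of contralateral cells, where the intervals overlapped. Mature oligodendrocytes had it in 18.1% of ipsilateral (15.7 to 20.7) and 10.0% of contralateral cells (7.65 to 12.9), without overlap, so a higher ipsilateral share was not particular to the precursors. In cycling precursors the log2 ratio of Gadd45g was 0.22.

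Others among the 10 highest were Rtp4, S100a10, Neat1, Ndrg1, Rfng, Arpc1b, Myc, Cldn11 and Ifitm3. Myc, the growth-promoting transcription factor, was at 57.6 CPM ipsilaterally and 28.8 CPM contralaterally, 2.00 times (1.5 to 2.69). Arpc1b, a subunit of the actin-branching complex, was at 52.4 and 25.2 CPM. Ndrg1, which is strongly expressed in myelinating cells and rises in low oxygen, was at 21.2 and 7.66 CPM, and had a UMI at equal depth in 15.5% of ipsilateral (11.2 to 20.7) and 3.72% of contralateral cells (1.51 to 7.52). Neuroblasts had one in 9.74% of ipsilateral (6.84 to 13.3) and 6.65% of contralateral cells (4.35 to 9.66), and mature oligodendrocytes in 98.4% and 97.8%. The intervals of precursors and neuroblasts overlapped on both sides. The precursor shares therefore cannot be told apart from free RNA of other cells, whose part was not tested, and no difference is read from them. Of the ipsilateral Ifitm3 UMIs, 51.5% came from 1 cell. Its log2 ratio was 1.88 in cleaned cells, 1.12 without the highest cell of each library, and 0.25 in all selected cells.

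The 10 lowest genes of that depth were Hapln1, Pkdcc, Adm, Npy, Pcp4, Tmem179, Pnlip, Gpld1, Rnf150 and Trnp1. Hapln1, which links hyaluronan to proteoglycans in the matrix, was at 5.45 CPM ipsilaterally and 21.2 CPM contralaterally, or 3.89 times higher (2.24 to 7.02) contralaterally. Pcp4, a calmodulin-binding peptide, was at 103 CPM (93.1 to 115) ipsilaterally and 222 CPM (203 to 242) contralaterally. Trnp1, a nuclear protein known from neural progenitors, was at 90.8 CPM (81.1 to 101) ipsilaterally and 182 CPM (165 to 201) contralaterally. For Hapln1, Pcp4 and Trnp1 the intervals of the 2 libraries did not overlap. The genes were picked by their ratios in the same counts, so this is a description and no check.

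Interferon-response genes formed the list with the highest median. Of 28 measured members, 18 were at least 1.5-fold higher in ipsilateral cells, 0 were 1.5-fold lower, and 26 lay above 0, with a median log2 ratio of 0.69 beside -0.06 for all genes. In all selected cells it was 18 of 30 and a median of 0.63. These genes had low counts, and low counts pass the fold more often: of all genes with 20 to 99 summed UMIs, 3.1% were 1.5-fold higher, and of the interferon list 15 of 21 in that range. Of genes with at least 100 and under 500 UMIs, 0.81% were higher, and of the interferon list 3 of 6.

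Several members were nearly absent from contralateral cells and were seen in few ipsilateral ones. At equal depth Bst2 was seen in 3.67% of ipsilateral (1.69 to 6.86) and 0.53% of contralateral cells (0.01 to 2.93). Ifi27l2a was seen in 2.04% (0.67 to 4.70) and 0.53% (0.01 to 2.93), and Ifit1 in 6.12% (3.47 to 9.90) and 1.06% (0.13 to 3.79). Isg15 was seen in 2.04% (0.67 to 4.70) and 0% (up to 1.94). For each of these genes the intervals overlapped. The intervals of the ratios below count UMIs and not cells. Bst2, which tethers budding viruses to the cell surface, had 64 UMIs (18.3 CPM) in ipsilateral and 1 UMI (0.45 CPM) in contralateral cells, a ratio with a counting interval of 7.05 to 1633. Its log2 ratio was 1.81 in all selected cells and 0.0045 with the limit of 10 on every other-type list. Ifi27l2a had 58 UMIs ipsilaterally and 2 contralaterally (interval of the ratio 4.88 to 156). Ifit1, which binds foreign RNA, was at 18.6 CPM ipsilaterally and 2.70 CPM contralaterally, 6.89 times (3.00 to 19.5). Rtp4, a chaperone for receptors that interferon induces, was at 30.7 CPM (25.1 to 37.1) ipsilaterally and 7.21 CPM (4.12 to 11.7) contralaterally, 4.25 times (2.50 to 7.71). Isg15, a ubiquitin-like modifier, had 20 UMIs in ipsilateral and 0 in contralateral cells, at least 4.24-fold higher with 3 counts as the floor of the contralateral library (lower limit of the counting interval of the ratio 3.14). In all selected cells the log2 ratio of Isg15 was 0.63, and it turned to -0.39 without cells over 10 UMIs per 10000 of both cycle lists and to -0.19 with a Gpr17 limit of 5.

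The transcription factors of the pathway were higher too. Irf9, the DNA-binding part of the type I interferon complex, was at 19.5 CPM ipsilaterally and 5.41 CPM contralaterally, 3.6 times (1.94 to 7.32). Stat2, which binds Irf9 in that complex, was at 10.9 CPM ipsilaterally and 4.51 CPM contralaterally, 2.42 times (1.18 to 5.44). Irf7 had 32 UMIs (9.17 CPM) in ipsilateral and 1 UMI (0.45 CPM) in contralateral cells, a ratio of 20.4 (3.40 to 829). At equal depth Irf7 was seen in 3.67% of ipsilateral (1.69 to 6.86) and 0% of contralateral cells (up to 1.94), where the intervals overlapped. The most abundant members differed less. Ifi27 was at 228 CPM ipsilaterally and 159 CPM contralaterally (1.43 times, 1.26 to 1.63), and Psme1, a proteasome activator, was at 80.5 and 73.9 CPM (1.09 times, 0.90 to 1.33).

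A few ipsilateral cells held much of the interferon signal, and the remaining cells still differed. At equal depth the list gave a median of 4 UMIs per ipsilateral cell and 3 per contralateral cell, with maxima of 77 and 12. At least 10 UMIs were found in 21 of 245 ipsilateral cells (8.57%, 5.38 to 12.8) and 4 of 188 contralateral cells (2.13%, 0.58 to 5.36). At least 15 UMIs were found in 8 ipsilateral cells and in 0 contralateral ones, which allows a contralateral share of up to 1.60% by 3 counts and 1.94% by the exact binomial limit. Leaving out the 10 cells with the highest share of these genes from each library lowered the median to 0.45, with 6 of 22 measured members at least 1.5-fold higher and 19 above 0. The summed level was then 604 CPM ipsilaterally and 423 CPM contralaterally, against 778 and 456 CPM with every cleaned cell.

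At equal depth Rtp4 was seen in 13.5% of ipsilateral cells (9.46 to 18.4) and 2.13% of contralateral cells (0.58 to 5.36), and Irf9 in 11.8% (8.07 to 16.6) and 3.19% (1.18 to 6.82). In neuroblasts, which give a measure of free RNA for these genes, Rtp4 was seen in 1.15% of ipsilateral and 0% of contralateral cells, and Irf9 in 4.87% and 3.46%. Endothelial cells had Rtp4 in 52.2% of ipsilateral and 39.2% of contralateral cells. The median log2 ratio of the interferon list was 0.49 in Gpr17-high precursors, 0.42 in endothelial cells, 0.21 in mature oligodendrocytes and 0.12 in neuroblasts, over 27, 39, 33 and 13 measured members. The differences between these cell types were not tested.

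Promoters of these genes are shown because the list had the highest median. RefSeq promoter windows, 250 bases before to 50 bases after the gene start on GRCm38.p6, were matched for 25 of the 30 measured members. The interferon-stimulated response element, searched as GAAANNGAAA on both strands with overlapping matches counted, was found in 13 of the 25 windows (52.0%), beside 3.49% of 27025 windows of all genes. Of the 16 members with a window that were at least 1.5-fold higher, 9 held it. The genes were listed for their response to interferon, so these shares describe the list and are no result about the cells. The windows of Bst2, Isg15 and Ifit1 are given 5′ to 3′ on the strand of the gene, with the matches in capitals. Bst2 (minus strand, chr8:71537423-71537722) and Isg15 (minus strand, chr4:156200769-156201068) hold overlapping matches, and Ifit1 (plus strand, chr19:34640639-34640938) holds 2 separate ones on the opposite strand.
Bst2: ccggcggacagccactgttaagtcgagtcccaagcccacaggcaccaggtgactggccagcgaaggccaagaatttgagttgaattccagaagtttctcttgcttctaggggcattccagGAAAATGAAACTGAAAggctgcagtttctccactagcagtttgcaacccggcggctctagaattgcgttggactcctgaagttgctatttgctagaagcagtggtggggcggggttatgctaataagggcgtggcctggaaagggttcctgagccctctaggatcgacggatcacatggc
Isg15: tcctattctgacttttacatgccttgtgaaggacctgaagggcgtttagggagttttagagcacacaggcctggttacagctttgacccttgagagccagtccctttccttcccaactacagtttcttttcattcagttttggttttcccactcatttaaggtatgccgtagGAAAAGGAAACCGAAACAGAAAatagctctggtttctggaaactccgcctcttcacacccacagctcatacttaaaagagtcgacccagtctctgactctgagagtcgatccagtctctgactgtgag
Ifit1: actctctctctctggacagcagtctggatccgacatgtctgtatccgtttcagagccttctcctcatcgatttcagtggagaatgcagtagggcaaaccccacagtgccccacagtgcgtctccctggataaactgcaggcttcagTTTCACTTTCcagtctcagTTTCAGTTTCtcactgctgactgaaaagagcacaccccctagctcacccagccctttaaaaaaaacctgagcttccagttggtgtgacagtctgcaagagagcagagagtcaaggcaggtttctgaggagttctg
Irf7, Irf9 and Rnf213 held no match in this window.

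Genes of antigen presentation did not move as a list. Of 12 measured MHC class I genes, 1 was 1.5-fold higher and 0 lower, with a median of 0.02. Of all genes, 1.62% were higher and 2.65% lower. The exception was Psmb8, an immunoproteasome subunit, at 14.3 CPM ipsilaterally and 4.51 CPM contralaterally (3.18 times, 1.59 to 7.03). B2m, which pairs with MHC class I chains, was at 142 and 104 CPM, and the heavy chain H2-D1 at 159 and 143 CPM (1.11 times, 0.97 to 1.28).

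Reactive glia genes were mixed. Of 15 measured, 6 were at least 1.5-fold higher and 1 was lower, with a median of 0.14. Beside these stand 1.62% higher and 2.65% lower of all genes. The higher ones were C4b, Serpina3n, Socs3, Vim, S100a10 and Cebpd. C4b, a complement component, had 35 UMIs in ipsilateral and 0 in contralateral cells, at least 7.42-fold higher with the same floor (lower limit of the counting interval 5.72), and it was seen at equal depth in 13 of 245 ipsilateral cells (5.31%, 2.86 to 8.90) and 0 of 188 contralateral cells. Mature oligodendrocytes had C4b in 15.6% of ipsilateral and 2.55% of contralateral cells. Socs3 and Cebpd, both targets of cytokine signalling through Stat3, were at 691 and 118 CPM ipsilaterally, against 416 and 66.2 CPM contralaterally. S100a10, a partner of annexins, was at 22.9 CPM ipsilaterally and 6.31 CPM contralaterally. Vim, the intermediate filament vimentin, was at 136 CPM ipsilaterally and 79.7 CPM contralaterally in cleaned cells (log2 ratio 0.73), whereas its log2 ratio in all selected cells was 0.05. At equal depth Vim was seen in 26.9% of ipsilateral (21.5 to 33.0) and 25.0% of contralateral cells (19.0 to 31.8), where the intervals overlapped. Cebpb, an inflammatory transcription factor, ran the other way at 21.8 CPM ipsilaterally and 41.0 CPM contralaterally.

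Immediate early genes had a median of 0.09, with 2 of 22 at least 1.5-fold higher, beside 1.62% of all genes, and 0 lower. Junb was at 1092 CPM ipsilaterally and 615 CPM contralaterally (1.77 times, 1.67 to 1.89), and Zfp36, which degrades inflammatory messenger RNAs, at 41.3 and 20.7 CPM. Fos, at 4652 and 4446 CPM, differed by 1.05 times. These genes are also induced by tissue dissociation, whose part was not tested.

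Among genes that drive or brake entry into the cycle, few differed. Of 18 measured G1 cyclins, kinases and inhibitors, 2 were at least 1.5-fold higher (Myc and the inhibitor Cdkn1a) and 0 lower. Of all genes, 1.62% were higher and 2.65% lower. Cdkn1a was at 17.8 CPM ipsilaterally and 7.21 CPM contralaterally (2.46 times, 1.41 to 4.58). Cdk4 was at 350 and 241 CPM (1.45 times, 1.31 to 1.61), while its partner Ccnd1 was at 1080 and 1044 CPM (1.03 times, 0.98 to 1.09) and Ccnd2 at 114 and 152 CPM. The list of growth arrest and p53 target genes, of which 15 were measured, had a median of -0.12, with Gadd45g, Gadd45b and Cdkn1a at least 1.5-fold higher and Gadd45a lower, so the Gadd45 genes did not share a direction. Gadd45b was at 10.9 CPM ipsilaterally and 1.35 CPM contralaterally in cleaned cells, and its log2 ratio was 0.07 in all selected cells.

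The Notch targets Hes5 and Nrarp were at least 1.5-fold lower in ipsilateral cells. Of 16 measured pathway genes, 12 lay below 0, beside 6844 of the 11454 genes measured in the cleaned cells. These 2 were the lower ones and 1 was higher, with a median of -0.18 (-0.28 in all selected cells, where Notch3 of mural cells counted). Hes5, the main Notch target in progenitors, was at 205 CPM ipsilaterally and 357 CPM contralaterally, or 1.74 times higher (1.57 to 1.93) contralaterally. The log2 ratio of Hes5 was -0.78, and -0.70 in all selected cells. From those cells it fell short of 1.5-fold at -0.41 with each cell thinned, at -0.34 without cells over 10 UMIs per 10000 of both cycle lists and at -0.52 with 0 UMIs of Mki67 and Top2a. It was -1.71 with the limit of 10 on every other-type list. Nrarp, a target that feeds back on the receptor, was at 90.6 and 175 CPM, or 1.94 times higher (1.66 to 2.25) contralaterally. Hes1 was at 210 and 303 CPM, a log2 ratio of -0.52 that did not pass 1.5-fold. The related Hey1 was at 58.5 and 72.5 CPM, and Hey2, which was low, at 32.7 and 24.8 CPM (1.32 times, 0.95 to 1.85). At equal depth Hes5 was seen in 44.5% of ipsilateral (38.2 to 51.0) and 58.5% of contralateral cells (51.1 to 65.6), and Nrarp in 38.8% (32.6 to 45.2) and 55.9% (48.4 to 63.1). Hes1 was seen in 49.4% (43.0 to 55.8) and 58.0% (50.6 to 65.1), where the intervals overlapped.

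The receptor was close between the sides, and the ligands were mixed. Notch1 was at 175 CPM ipsilaterally and 182 CPM contralaterally (0.96 times, 0.84 to 1.09). The ligand Dll1 was at 58.5 and 79.3 CPM (0.74 times, 0.60 to 0.91), the atypical ligand Dner at 152 and 179 CPM (0.85 times, 0.74 to 0.97), and the ligand Jag1 at 16.6 and 21.6 CPM (0.77 times, 0.52 to 1.15). Dll3, which blocks Notch within the cell that makes it, was at 131 and 87.0 CPM (1.5 times, 1.27 to 1.79). Rfng, which modifies the receptor with sugars, was at 39.8 and 17.6 CPM. In cleaned cycling precursors the log2 ratios of Hes5, Nrarp and Hes1 were -1.30, -1.06 and -1.76. These ratios rest on few UMIs in 46 ipsilateral and 24 contralateral cells. Hes5 had 48 and 51 UMIs, Nrarp 53 and 47, and Hes1 57 and 83. Of the 386753 UMIs of those contralateral cells, 55821 came from 1 cell, so no agreement is read from them. The promoter window of Hes5 (plus strand, chr4:154960673-154960972) is shown because it holds 2 matches to the sequence bound by the Notch partner Rbpj, searched as GTGGGAA on both strands and in capitals here.
Hes5: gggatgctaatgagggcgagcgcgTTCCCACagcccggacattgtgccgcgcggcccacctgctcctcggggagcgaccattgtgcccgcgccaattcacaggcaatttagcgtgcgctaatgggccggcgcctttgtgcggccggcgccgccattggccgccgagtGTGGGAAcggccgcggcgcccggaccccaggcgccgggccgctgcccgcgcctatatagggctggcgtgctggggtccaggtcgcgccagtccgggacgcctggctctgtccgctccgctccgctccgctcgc
This motif was found in 3 of 15 windows of measured Notch pathway genes, beside 6.39% of all windows, and the window of Nrarp held none.

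Bone morphogenetic protein, hedgehog and receptor tyrosine kinase lists lay slightly below all genes. Of all 11454 genes measured in the cleaned cells, 6844 lay below 0, beside which the counts here stand. The bone morphogenetic protein list had a median of -0.20 with 13 of 17 below 0 and 2 at least 1.5-fold lower, Id4 and Chrd. Id4, a target that blocks basic helix-loop-helix factors, had 20 UMIs (5.73 CPM) ipsilaterally and 30 UMIs (13.5 CPM) contralaterally, but its log2 ratio was 0.02 in all selected cells. Chrd, which binds and inhibits the ligands, was at 4.87 and 12.2 CPM. The receptor Bmpr1a was at 51.6 CPM (44.3 to 59.7) ipsilaterally and 76.6 CPM (65.5 to 89.0) contralaterally, without overlap of the intervals. Of 6 hedgehog genes, with a median of -0.34, the transducer Smo was at least 1.5-fold lower, at 12.9 and 23.4 CPM. Of 22 receptor tyrosine kinases and feedback genes, 17 lay below 0 and 0 passed 1.5-fold in either direction. The feedback genes Spry4 and Dusp6 were at 69.4 and 105 CPM ipsilaterally, against 99.6 and 142 CPM contralaterally.

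Surface and matrix genes of precursors lay close to all genes, while receptors and channels lay lower in ipsilateral cells. Of all 11454 genes measured in the cleaned cells, 6844 lay below 0. Of 26 surface and matrix genes, 21 lay below 0, with a median of -0.11 beside -0.06 for all genes, and 1 past 1.5-fold, Sparcl1, at 132 CPM ipsilaterally and 206 CPM contralaterally. Cspg5 was at 3649 and 4391 CPM, and Ptprz1, a receptor phosphatase, at 3243 and 3753 CPM. Of 22 receptors and channels, 19 lay below 0, with a median of -0.24. The AMPA receptor subunit Gria1 was at 24.1 and 40.6 CPM and Gria2 at 1009 and 1220 CPM. The calcium channel Cacna1c was at 11.2 and 23 CPM. Gria1 and Cacna1c were at least 1.5-fold lower ipsilaterally, beside 2.65% of all genes. The endothelin receptor Ednrb was at 622 CPM (596 to 648) ipsilaterally and 843 CPM (805 to 882) contralaterally, without overlap of the intervals.

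Lineage transcription factors had a median of 0.00 over 19 genes, with 0 past 1.5-fold. Olig1 was at 2952 CPM ipsilaterally and 2950 CPM contralaterally. Of 19 commitment genes outside the selection, 2 were at least 1.5-fold higher, beside 1.62% of all genes. Bcas1, which marks precursors turning into oligodendrocytes, was at 386 CPM (366 to 407) ipsilaterally and 219 CPM (200 to 239) contralaterally, and Arpc1b is given above. The part of free RNA of other cells in the Bcas1 levels was not tested. Neu4 ran the other way at 293 and 378 CPM, and Bmp4 was at 51.3 and 38.7 CPM (1.32 times, 1.02 to 1.73).

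Mature oligodendrocyte genes outside the selection were higher in ipsilateral cells, and also in cells of other types. Of 19, 15 lay above 0 and 2 passed 1.5-fold, with a median of 0.31 (0.50 and 7 in all selected cells). Cldn11, a tight junction protein of myelin, was at 160 CPM ipsilaterally and 84.7 CPM contralaterally, and was seen at equal depth in 67.3% (61.1 to 73.2) and 42.6% (35.4 to 50.0) of cells. Mag, a myelin adhesion protein, was seen in 49.4% (43.0 to 55.8) and 30.9% (24.3 to 38). In neuroblasts, which should lack both, Cldn11 was seen in 54.2% of ipsilateral (48.8 to 59.5) and 40.2% of contralateral cells (35.2 to 45.3), and Mag in 43.8% (38.6 to 49.2) and 28.2% (23.7 to 33.0). The list's median was 0.40 in neuroblasts and 0.53 in endothelial cells. For Mag on both sides, and for Cldn11 contralaterally, the intervals of neuroblasts and precursors overlapped, so these shares cannot be told apart from free myelin RNA. The ipsilateral Cldn11 share was above that of neuroblasts without overlap, and the part of free RNA in it was not tested. The neuroblasts were also chosen for low lineage factors, which may lower the free oligodendrocyte RNA they show.

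Lipid handling genes had 14 of 20 members below 0, beside 6844 of all 11454 genes measured. Their median was -0.27 (-0.18 in all selected cells). Apoe, the lipid carrier, was at 1274 CPM in ipsilateral and 2450 CPM in contralateral cells, 1.92 times higher (1.85 to 2.00) contralaterally. Its log2 ratio was -0.69 in all selected cells and fell short of 1.5-fold, at -0.55, with 0 UMIs of Mki67 and Top2a and, at -0.43, without cells over 10 UMIs per 10000 of both cycle lists. It was seen in 88.6% of ipsilateral and 96.8% of contralateral cells at equal depth, whereas neuroblasts had it in 44.1% and 37.5%. The fatty acid binding protein Fabp7 was at 1459 and 1866 CPM, while its relative Fabp5 was at 289 and 188 CPM (1.53 times, 1.37 to 1.72). The summed astrocyte markers, among which Apoe was not counted, were at 342 CPM ipsilaterally and 504 CPM contralaterally in the cleaned cells, and their part in this result was not tested.

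Hypoxia-inducible genes split into 2 directions. Of 21, 3 were at least 1.5-fold lower and 2 higher, with a median of -0.18. Beside these stand 2.65% lower and 1.62% higher of all genes. Adm, the vasodilator peptide adrenomedullin, was at 45.9 CPM (39.0 to 53.5) ipsilaterally and 108 CPM (94.5 to 122) contralaterally, and was seen at equal depth in 17.6% and 31.9% of cells. Vegfa, the vessel growth factor, was at 67.1 and 112 CPM, and Ddit4, an inhibitor of growth signalling, at 70.8 and 112 CPM. The higher genes were Ndrg1 and Hk2, a hexokinase, which was at 15.2 CPM ipsilaterally and 4.96 CPM contralaterally (3.06 times, 1.58 to 6.51). For Ndrg1, as given above, the shares of cells could not be told apart from free RNA. Without cells over 10 UMIs per 10000 of both cycle lists, the log2 ratios of Vegfa and Ndrg1 were -0.09 and 0.31. Among 12 secreted signals, Npy, neuropeptide Y, was at 17.5 and 42.4 CPM, and the chemokine Cxcl14 at 76.2 and 122 CPM.

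**Figure D3:**
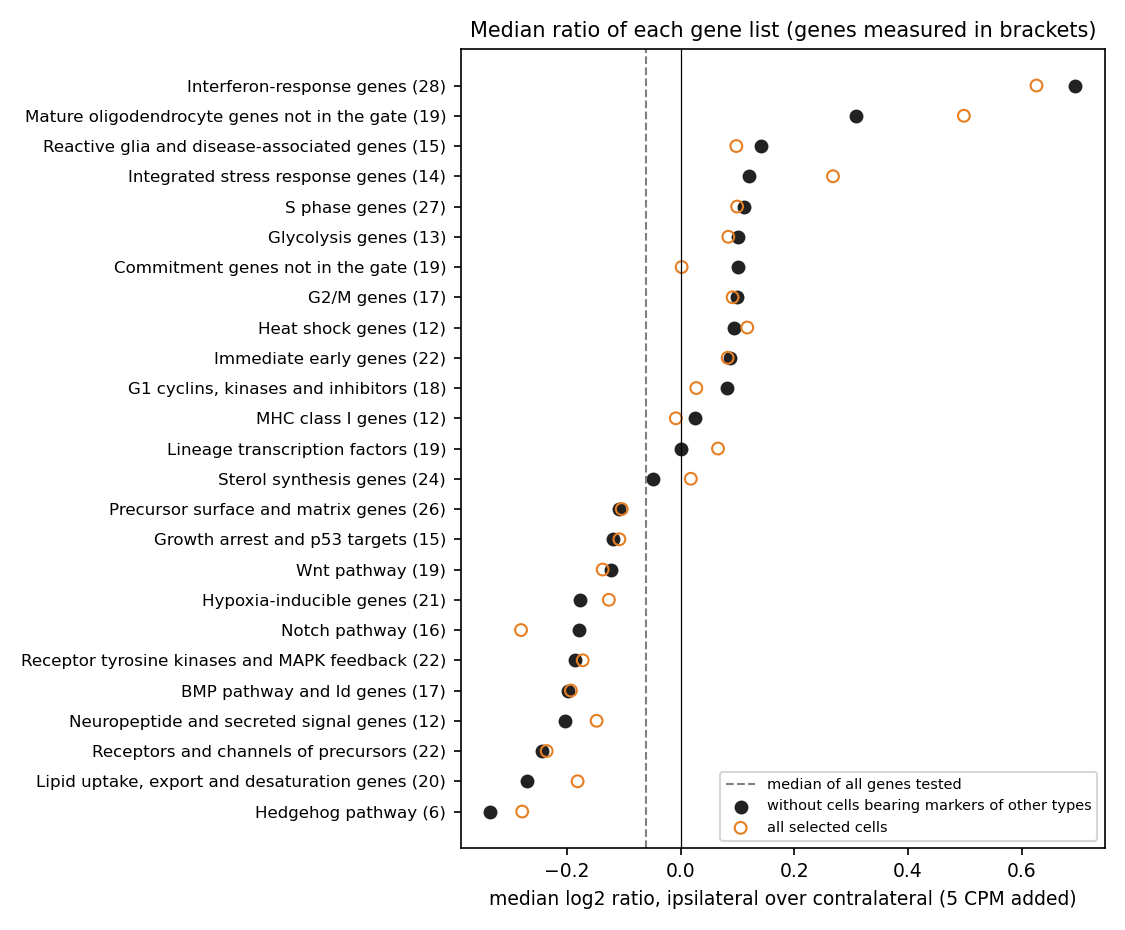
Median log2 ratio, ipsilateral over contralateral after adding 5 CPM, of each of 25 gene lists, with the genes measured in the cleaned cells in brackets; filled points are cleaned cells, open points all selected cells, and the dashed line is the median of all genes at -0.06. The interferon list lies highest at 0.69 and the hedgehog list of 6 genes lowest at -0.34.

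**Figure D4:**
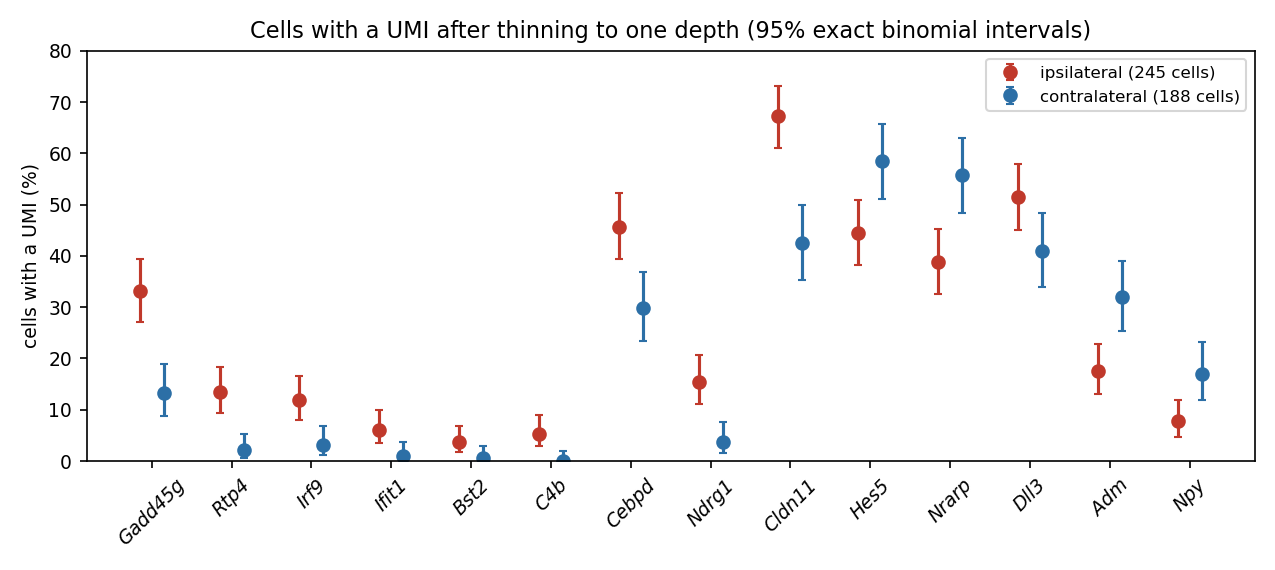
Percentage of cleaned cells with at least 1 UMI of each gene after every cell was thinned to 6915 UMIs, in 245 ipsilateral cells (red, left of each pair) and 188 contralateral cells (blue), with exact binomial 95% intervals. Gadd45g, Rtp4, Irf9, C4b, Cebpd, Ndrg1 and Cldn11 (the last 2 beside neuroblast shares given in the text) lie higher and Hes5, Nrarp, Adm and Npy lower ipsilaterally without overlap of the intervals. For Npy the facing limits lie at 11.8% and 11.9%, and the shares without thinning were 13.6% ipsilaterally and 17.5% contralaterally. No difference is read from the Ndrg1 shares, which cannot be told apart from free RNA.

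Some of the genes lowest in ipsilateral cells also separated non-cycling from cycling precursors. The genes most above cycling cells in both libraries, after the selection itself had removed cells with Mki67 and Top2a, were Erbb3, Trnp1, Pcp4, Tmem179, Tmem86a, Hes5, Inpp4b, Mthfs, Chgb and Clu. Trnp1 was at 90.8 CPM in non-cycling and 25.2 CPM in cycling ipsilateral cells, and at 182 and 56.9 CPM in contralateral ones. Pcp4 was at 103 and 33.6 CPM ipsilaterally and at 222 and 28.4 CPM contralaterally. Hes5 was at 205 and 50.5 CPM ipsilaterally and at 357 and 132 CPM contralaterally. Trnp1, Pcp4 and Tmem179 thus stood both among the 10 lowest ipsilateral genes and among these 10. The 2 comparisons share the non-cycling cells of both libraries, so this overlap is a description. In cleaned cells with 0 UMIs of Mki67 and Top2a the log2 ratios of Trnp1, Pcp4 and Hes5 between the sides were -0.81, -0.96 and -0.61.

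The genes lowest in non-cycling relative to cycling cells were mitotic, as the selection requires, and are not a result. Precursor surface and matrix genes were higher in non-cycling cells, with a median log2 ratio of 0.39 ipsilaterally (24 of 26 above 0) and 0.66 contralaterally (25 of 26), beside 0.09 for all genes in both libraries. Sterol synthesis genes were lower in non-cycling cells, with medians of -0.30 ipsilaterally (3 of 24 above 0) and -0.48 contralaterally (4 of 23). MHC class I genes were higher, with medians of 0.56 and 0.72 over 13 and 10 genes. The interferon list was at 0.38 ipsilaterally over 28 genes and at -0.01 contralaterally over 11.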

How the data were processed

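Droplet single-cell RNA sequencing was made of 2 libraries, 1 per side. The authors deposited raw UMI counts per gene and cell barcode, made with Cell Ranger 3.1.0 on mm10, per the submitters' processing notes. The libraries held 54788795 UMIs ipsilaterally and 36063045 contralaterally over 31053 genes; the members held 3719831 and 2374893.

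Cells were chosen by fixed limits on the deposited counts. Counts were summed per library, scaled to CPM and compared as log2 ratios with 5 CPM added, over genes with at least 20 summed UMIs; 1.5-fold was the threshold. With 1 library per side no test was made, so the design's rule of size was used. Intervals are exact (Poisson for sums, Clopper-Pearson for shares, both at 95%) and cover counting error only, as do floors of 3 counts. Shares of cells were computed after thinning each cell to 6915 UMIs without replacement, which left out 19 ipsilateral and 29 contralateral cleaned cells. Neuroblasts and endothelial cells, used to gauge free RNA, were taken by their own markers (at least 20 and 50 UMIs per 10000). Both also had to have Olig1, Olig2 and Sox10 together under 5 per 10000, and neuroblasts endothelial markers under 50. The limit on lineage factors may lower the free oligodendrocyte RNA that these cells show, which was not tested.

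The members and all 25 gene lists were chosen with earlier results of these data known. Genes named are the 10 highest and 10 lowest ratios among genes with at least 50 UMIs and, in 1 library, at least 20 CPM, plus list members with the largest ratios or levels; other list members named for their role were chosen after their values were seen. Doublets were not removed; Scrublet in scanpy 1.11.5 called 11 of 2775 ipsilateral barcodes (0.40%) and 14 of 2066 contralateral ones (0.68%), of which 1 and 2 were members. At such rates doublets cannot be taken as accounted for. The scripts were tested on simulated data and used Python 3.11.15, numpy 2.4.6, pandas 2.3.3 and scipy 1.17.1. Alternatives varied the added CPM, the minimum of UMIs, the scaling, the weight and depth of cells, and each limit of the selection. Some genes of the lists are not reported here.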

Additional observations from a re-analysis of the deposited data

How the results depend on the processing

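No paired analysis was possible because each side is 1 library. With 1 library per side, no value has a replicate check, and counting error bounds only part of the uncertainty. The median of the interferon list lay above the median of all genes under every alternative run, at 0.26 to 0.89.

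Adding 1 CPM in place of 5 gave 460 higher and 808 lower genes and an interferon median of 0.89. Adding 20 CPM gave 59, 92 and 0.28, and a minimum of 100 UMIs gave 91, 186 and 0.37. Fewer low genes pass under the last alternative by its construction. Median-of-ratios scaling moved the glycolysis list to 0.15.

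Keeping cycling cells gave an S phase median of 0.48 and an ipsilateral share of 13.1%. Requiring 0 UMIs of Mki67 and Top2a gave S phase -0.17, G2/M -0.13 and an ipsilateral share of 9.34%. Leaving out cells over 10 UMIs per 10000 of both cycle lists gave 433 higher genes, S phase -0.018, G1 genes 0.33, interferon 0.39, MHC class I -0.18, Isg15 -0.39, and shares of 5.71% ipsilaterally and 5.59% contralaterally. A Gpr17 limit of 5 gave 348 higher genes, S phase 0.28, interferon 0.43, Isg15 -0.19, and shares of 6.11% and 7.06%.

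Leaving out cells over 10 UMIs per 10000 in any other-type list, mature genes included, left 68 ipsilateral and 96 contralateral cells (2.71% and 5.02%). It gave 385 higher and 921 lower genes, with medians of -0.42 for growth arrest, 0.26 for interferon, -0.23 for MHC class I, -0.45 for BMP, -0.63 for hedgehog and -0.43 for lipid genes, and ratios of -0.22 for Crym and 0.26 for Myl9.

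In the cleaned cells Col1a1, Crym, Myl9 and Notch3 turned to -0.044, -0.047, 0.12 and 0.080. With 0 cycling UMIs they were at -0.14, -0.18, 0.18 and 0.10, with S phase at -0.13 and shares of 8.74% and 10.4%. With 20 CPM added they were at -0.012, -0.014, 0.036 and 0.021, with 55 higher and 41 lower genes, mature genes at 0.20 and interferon at 0.33. With cells weighted equally they were at -0.015, -0.055, 0.12 and 0.093, and Mylk at 0.052. These genes have few or 0 UMIs in the cleaned cells. The cause of the other shifts was not tested. Over all alternatives, 582 of the list medians, gene counts and shares stayed within their limits and 44 moved. A list median was held against an interval from the spread of its own genes. Member shares cannot change where only the added CPM, the minimum of UMIs, the scaling or the weighting was varied. Part of the 582 was therefore fixed in advance. Of the ratios and cell shares of single genes, 2805 stayed, 165 moved and 21 past 1.5-fold changed sign.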

Other observations

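Several stress and metabolic lists lay near the median of all genes (-0.06) in the cleaned cells. Heat shock genes had a median log2 ratio of 0.09 with 1 of 12 past 1.5-fold, Hspa1a, at 5.16 CPM ipsilaterally and 11.7 CPM contralaterally. Integrated stress response genes had a median of 0.12 over 14 genes, with 0 past 1.5-fold, and 0.27 over 16 genes in all selected cells. Glycolysis genes were at 0.10 over 13 genes and sterol synthesis genes at -0.05 over 24, both with 0 past 1.5-fold. Of 19 Wnt pathway genes, 1 was higher and 1 lower, with a median of -0.12: Axin2, a feedback target of the pathway, was at 19.5 CPM ipsilaterally and 35.6 CPM contralaterally (1.83 times higher contralaterally, 1.30 to 2.56), and Dkk3 was at 5.45 and 1.80 CPM.

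The cytoskeletal gene Actb was at 6342 CPM in ipsilateral and 4364 CPM in contralateral cleaned cells. The nuclear long noncoding RNA Malat1 was at 33991 CPM ipsilaterally and 42050 CPM contralaterally. Ribosomal protein genes took 10.2% of UMIs in ipsilateral and 7.30% in contralateral cleaned cells.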
